A study of Mus musculus with 6 samples.

Results

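Genes for extracellular inhibitors of Wnt signalling were followed in lung buds of mouse embryos that carried Cre with a floxed Fzd2 gene, coding for one of the Frizzled receptors that Wnt proteins bind, or Cre alone. The members were the 10 genes Sfrp1, Sfrp2, Sfrp4, Sfrp5, Frzb, Wif1, Dkk1, Dkk2, Dkk3 and Kremen1, of 22180 genes tested. Each was read from the probe set that carried only its symbol and, where several did, had the highest mean over all 6 arrays. The 10 genes had 11 such probe sets, because Sfrp2 had a second one. Of the 10 genes, 9 code for secreted proteins, while Kremen1 codes for a transmembrane receptor to which secreted Dkk proteins bind. The names antagonist and inhibitor are used as labels for all 10. By known function, Dkk2 inhibits or activates Wnt signalling depending on context, and Dkk3 is a divergent member of the Dkk family.

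The mutant group was 3 lungs of genotype Fzd2Flox/Flox; Shh cre/+ and the control group 3 lungs of genotype Shh cre/+, all at stage E12.5. Both groups therefore carried the Cre allele. Shh is expressed in lung epithelium, so recombination was directed at that layer, while RNA came from the whole lung bud with its mesenchyme. The sources used here do not say whether lungs were pooled, and the 3 arrays per group limit the precision of every value.

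Wnt ligands signal by joining a Frizzled receptor to the coreceptors Lrp5 or Lrp6, after which beta-catenin accumulates and acts with TCF and LEF factors on target genes. Secreted Frizzled-related proteins and Wif1 bind Wnt ligands outside the cell, whereas Dkk1 binds the Lrp coreceptors. Wnt signals pass between epithelium and mesenchyme during lung branching, and added Dkk1 protein is known to disturb branching of cultured lungs.

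The promoters of Sfrp2, Wif1 and Dkk1 are shown because these members had the 3 largest differences between the groups. RefSeq sequence of the window from 250 bases before to 50 bases after the start site was at hand for 6 of the 10 members, on build GRCm38.p6. Capitals mark the TCF/LEF core letters TCAAAG or, on the other strand, CTTTGA; no other motif was searched. Sfrp2 lies at chr3:83766071-83766370 on the plus strand, Wif1 at chr10:121033754-121034053 on the plus strand, and Dkk1 at chr19:30549447-30549746 on the minus strand, each written 5′ to 3′ along its gene.
Sfrp2: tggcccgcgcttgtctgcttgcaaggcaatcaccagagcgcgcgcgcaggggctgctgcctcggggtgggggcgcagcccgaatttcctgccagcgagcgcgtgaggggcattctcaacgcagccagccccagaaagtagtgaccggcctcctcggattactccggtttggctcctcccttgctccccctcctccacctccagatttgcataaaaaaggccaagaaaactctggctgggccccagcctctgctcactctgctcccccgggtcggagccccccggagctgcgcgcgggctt
Wif1: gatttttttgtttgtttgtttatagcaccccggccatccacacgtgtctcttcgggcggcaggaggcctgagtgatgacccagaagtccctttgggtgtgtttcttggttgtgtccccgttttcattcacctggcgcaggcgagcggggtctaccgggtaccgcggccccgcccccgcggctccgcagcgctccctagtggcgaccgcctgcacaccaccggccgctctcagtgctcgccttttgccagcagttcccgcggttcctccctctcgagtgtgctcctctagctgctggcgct
Dkk1: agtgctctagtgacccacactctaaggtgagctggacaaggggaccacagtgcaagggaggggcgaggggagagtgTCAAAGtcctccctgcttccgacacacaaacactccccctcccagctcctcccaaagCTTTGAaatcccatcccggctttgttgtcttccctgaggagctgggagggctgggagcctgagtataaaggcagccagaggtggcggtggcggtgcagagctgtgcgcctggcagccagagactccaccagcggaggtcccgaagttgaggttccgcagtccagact
The Dkk1 window held 2 matches, which began 174 and 117 bases before the start site. The Sfrp2 and Wif1 windows held 0. Of the 6 members with a sequence, 2 (Dkk1 and Frzb) had a match, and 18.2% of 27025 genes with a promoter sequence had at least 1. The windows of Sfrp2, Wif1 and Dkk1 were 66.0%, 63.0% and 60.7% G and C, where the median over all promoters was 52.7%.

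Fzd2 itself had log2 values of 9.67, 9.07 and 9.54 in mutant lungs, against 9.57, 9.82 and 9.75 in control lungs. The groups overlapped, and the log2 difference was -0.29 (SE 0.15, limma adjusted p = 0.475), so the targeted gene is a weak check of the labels in whole lungs. Single arrays stood apart in markers of other tissues. Mean values of small intestine markers stood apart in control replicate 1 (9.31, against 6.22 to 6.54 on the other arrays), of adipose markers in mutant replicate 2 (10.82, against 6.97 to 7.84) and of heart muscle markers in mutant replicate 1 (9.42, against 8.14 to 8.21). Nkx2-1, which marks lung epithelium, had log2 values of 10.05, 10.09 and 10.09 in mutant lungs, against 10.41, 10.57 and 10.49 in control lungs. Every mutant array lay below every control, with a log2 difference of -0.41 (SE 0.05, limma adjusted p = 0.0749).

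Of the 10 members, 8 had higher and 2 lower mean values in mutant lungs, with fold changes from 0.906 to 1.24. In 6 members every mutant array lay above every control array, in 1 every mutant array lay below, and in 3 the groups overlapped. Over all genes tested, the groups did not overlap in 19.4%, with mutants above in 10.6% and below in 8.83%. No member passed limma at an adjusted p under 0.05 (0 of 10, lowest adjusted p = 0.198), where 0.0631% of all genes did. At an unadjusted p under 0.05 there were 5 members, all higher, where 12.5% of all genes were at that level and 7.34% were higher. The median log2 difference was 0.15 over the members and 0.01 over all genes, and the members were chosen with earlier results of these data known.

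**Figure D1:**
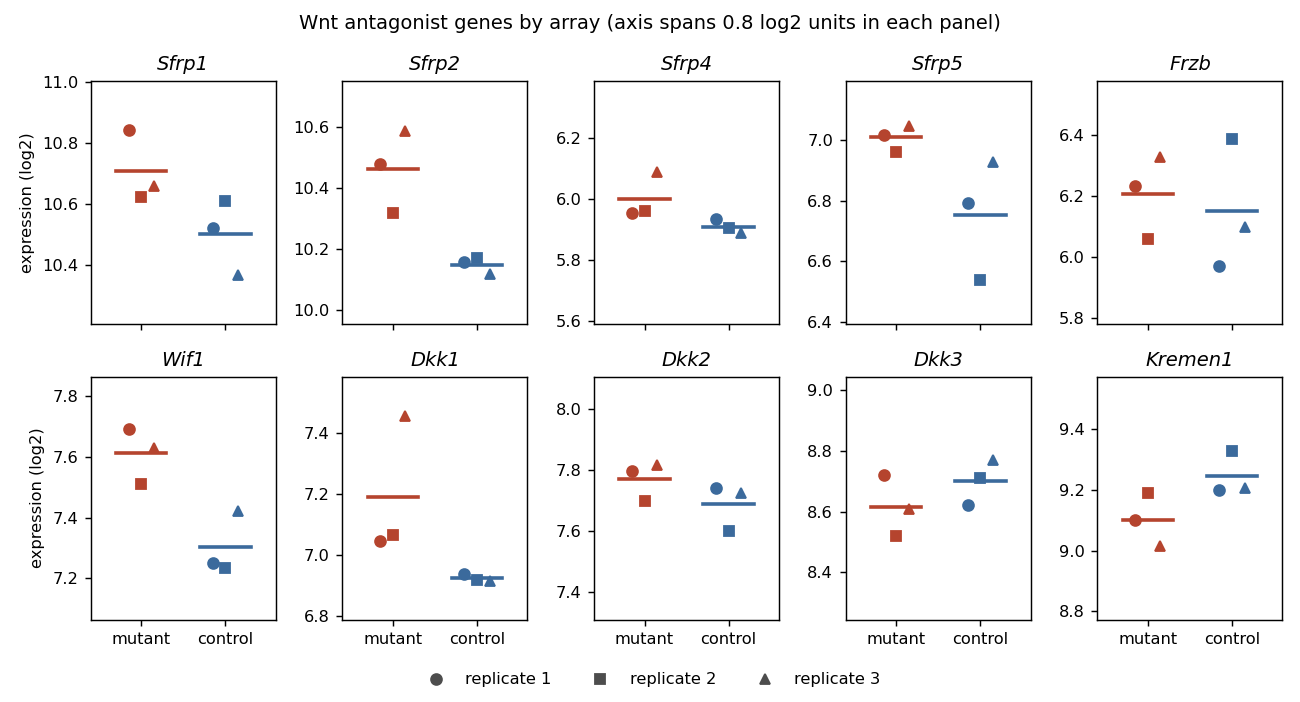
Deposited log2 values of the 10 antagonist genes, with mutant arrays (red) left of control arrays (blue), a marker shape for each replicate number and a bar at each group mean. Mutant arrays lie above all controls for Sfrp1, Sfrp2, Sfrp4, Sfrp5, Wif1 and Dkk1, and below all controls for Kremen1.

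The 6 genes whose proteins bind Wnt ligands all had higher means in mutant lungs, where 54.8% of all genes had. By expression level that share was 68.8% to 73.7% in the deciles that hold Sfrp4, Frzb, Sfrp5 and Wif1. In 5 of these 6 the mutant arrays all lay above, as in 10.6% of all genes, and 4 were higher at an unadjusted p under 0.05, as were 7.34% of all genes. Their log2 differences ran from 0.06 (Frzb) to 0.31 (Sfrp2).

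Sfrp2, a secreted Frizzled-related protein with a cysteine-rich domain like that of Frizzled receptors, had log2 values of 10.48, 10.32 and 10.59 in mutant replicates 1 to 3, against 10.16, 10.17 and 10.12 in control replicates 1 to 3. The controls lay within a narrow band, and even the lowest mutant array was above it. The log2 difference was 0.31 (SE 0.07, 95% interval 0.15 to 0.48), a fold change of 1.24, with limma adjusted p = 0.198 over all genes. The second Sfrp2 probe set did not show this separation. It had 7.002, 6.996 and 7.28 in mutant lungs, against 7.09, 7.09 and 6.96 in control lungs, a log2 difference of 0.05 (SE 0.09), so the 2 probe sets disagree in size.

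Wif1, which binds Wnt ligands through a domain unrelated to that of Frizzled receptors, had 7.69, 7.51 and 7.63 in mutant lungs, against 7.25, 7.23 and 7.42 in control lungs. Every mutant array was above the highest control, which was control replicate 3. The log2 difference was 0.31 (SE 0.07, 95% interval 0.14 to 0.48, adjusted p = 0.209), again a fold change of 1.24.

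Sfrp1, of the same subgroup of Frizzled-related proteins as Sfrp2 and Sfrp5, had 10.84, 10.62 and 10.66 in mutant lungs, against 10.52, 10.61 and 10.37 in control lungs. The lowest mutant array, replicate 2, exceeded control replicate 2 by only 0.01 on the log2 scale. The log2 difference was 0.21 (SE 0.08, 95% interval 0.01 to 0.40, adjusted p = 0.376). Sfrp5 had 7.02, 6.96 and 7.05 in mutant lungs, against 6.79, 6.54 and 6.93 in control lungs. Its mutant arrays were close together while its controls spread widely. The log2 difference was 0.25 (SE 0.09, 95% interval 0.03 to 0.48, adjusted p = 0.351), and it was 0.15 without control replicate 2.

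Sfrp4 and Frzb were the 2 members below the 30th percentile of mean expression over all genes, and the other 8 were above it. Sfrp4, a secreted Frizzled-related protein, had 5.95, 5.96 and 6.09 in mutant lungs, against 5.93, 5.91 and 5.89 in control lungs. The mutants lay above, but mutant replicate 1 exceeded control replicate 1 by a margin of 0.02, and the log2 difference was 0.09 (SE 0.05, adjusted p = 0.519). It was 0.047 without mutant replicate 3. Frzb, also known as a Frizzled-related protein of developing cartilage, had 6.24, 6.06 and 6.33 in mutant lungs, against 5.97, 6.39 and 6.10 in control lungs. The groups were interleaved. Its log2 difference of 0.06 (SE 0.11, adjusted p = 0.863) had a 95% interval of -0.21 to 0.32, which leaves room for a change in either direction. It turned to -0.035 without control replicate 1 and to -0.0051 without mutant replicate 3, and was 0.17 without control replicate 2.

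The Dickkopf genes went both ways, with 2 higher means and 1 lower mean. Dkk1, the inhibitor that binds Lrp5 and Lrp6, had 7.05, 7.06 and 7.46 in mutant lungs, against 6.94, 6.92 and 6.91 in control lungs. All mutants were above the tightly grouped controls, and mutant replicate 3 was far above the other mutants. The log2 difference was 0.27 (SE 0.11, 95% interval 0.02 to 0.51, adjusted p = 0.375), and 0.13 without mutant replicate 3. That array also had the highest mean of the liver marker list, 7.51, against 6.98 and 7.01 in the other mutants and 6.75 to 6.90 in controls. The list's Afp, the fetal plasma protein gene, stood at 9.53 there, against 7.94 and 8.10 in the other mutants and 7.29 to 7.50 in controls. The part of liver tissue in the Dkk1 value was not tested.

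Dkk2, which inhibits or activates Wnt signalling depending on context, had 7.80, 7.70 and 7.82 in mutant lungs, against 7.74, 7.60 and 7.72 in control lungs. The groups overlapped, and the difference was 0.08 on the log2 scale (SE 0.06, 95% interval -0.06 to 0.22, adjusted p = 0.594), or 0.037 without control replicate 2. Dkk3, a divergent family member, had 8.72, 8.52 and 8.61 in mutant lungs, against 8.62, 8.71 and 8.77 in control lungs. Here too the groups overlapped, and the log2 difference was -0.09 (SE 0.07, 95% interval -0.24 to 0.07, adjusted p = 0.625). Leaving out mutant replicate 2 gave -0.036, leaving out control replicate 3 gave -0.051 and leaving out mutant replicate 1 gave -0.14, and the value was 0.19 (SE 0.26) with the mean of the pan-epithelial markers as a covariate. Kremen1, the transmembrane receptor that works with Dkk proteins to remove Lrp6 from the cell surface, had 9.10, 9.19 and 9.02 in mutant lungs, against 9.20, 9.33 and 9.20 in control lungs. It was the only member of the 10 with every mutant array below every control, by a margin of 0.01 between mutant replicate 2 and control replicate 1. Its log2 difference was -0.14 (SE 0.06, 95% interval -0.29 to 0.01, adjusted p = 0.416).

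A two-sided exact permutation test over the 6 arrays gave p = 0.1, the smallest that 3 arrays against 3 allow, for each of the 7 members whose groups did not overlap. That value follows from the lack of overlap and adds nothing to it. The labels call the arrays biological replicates.

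**Figure D2:**
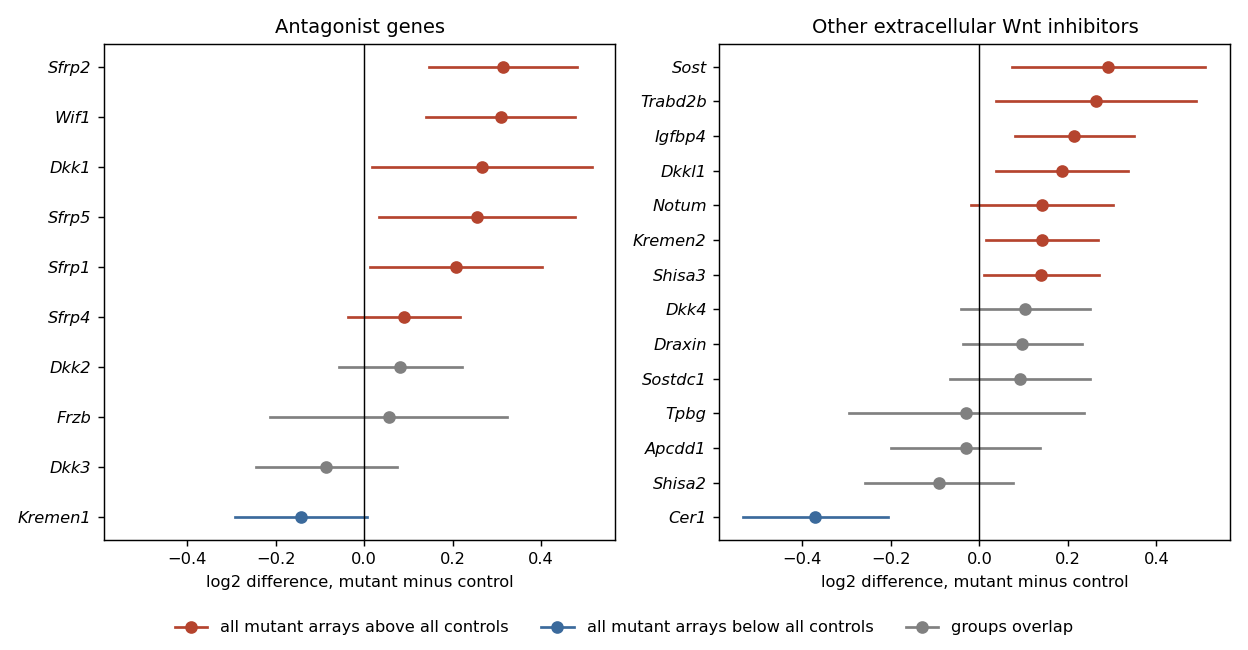
Log2 differences, mutant minus control, with limma's 95% intervals for the 10 antagonist genes (left) and 14 genes listed as other extracellular Wnt inhibitors (right). Colours show whether the 3 mutant arrays lie above, below or among the 3 controls. Sfrp2 and Wif1 lead the left panel at 0.31, and Cer1 is lowest on the right at -0.37.

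The differences of all genes depended on where a probe set lay on the expression scale, and this bears on the members differently. When genes were split into deciles by mean value, the median log2 difference was 0.06 in the fourth decile and 0.05 in the fifth, but -0.03 in both the ninth and the highest decile. Mutants lay above without overlap in 17.2% of genes in the fourth decile (Dkk1, Sfrp5) and 16.2% in the fifth (Wif1), against 6.0% in the ninth (Sfrp2) and 5.41% in the highest (Sfrp1). Sfrp1 and Sfrp2 were thus higher in mutants on a part of the scale where 32.5% and 34.0% of genes had higher means. Kremen1 lay in the eighth decile, where 15.7% of genes had all mutants below.

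Cyclic loess between arrays, which removes such a trend and was chosen after seeing the data, left median differences of the deciles between 0.0023 and 0.03. After it the log2 difference was 0.35 for Sfrp2, 0.29 for Wif1, 0.24 for Sfrp1, 0.23 for Dkk1 and 0.21 for Sfrp5. Differences were larger than with the deposited values for Sfrp1 and Sfrp2, and smaller in size for Wif1, Sfrp5, Dkk1, Dkk2, Dkk3 and Kremen1. The 2 members lowest on the scale shrank by more than 1.5 times, Sfrp4 to 0.054, against 0.09 with the deposited values, and Frzb to 0.014, against 0.06. At an unadjusted p under 0.05 there were then 4 members, all higher and without Dkk1, where 6.77% of all genes were higher.

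**Figure D3:**
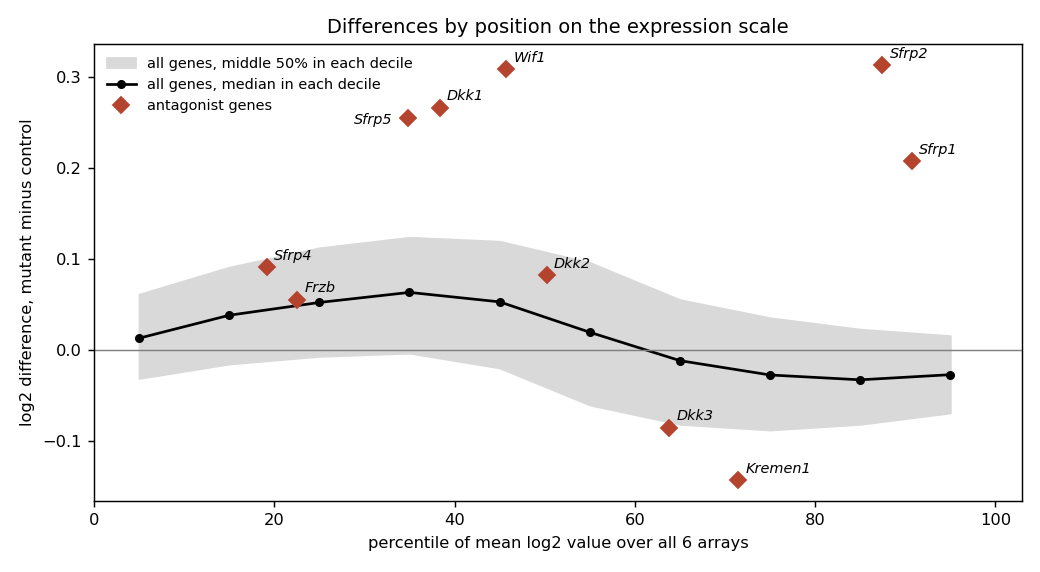
Log2 difference, mutant minus control, against the percentile of mean log2 value over all 6 arrays; the black line and grey band give the median and the middle 50% of all genes in each decile, and red diamonds are the antagonist genes. The median of all genes is above 0 in the lower part of the scale and below 0 in the upper part, where Sfrp1 and Sfrp2 lie.

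Among 14 genes listed as other extracellular inhibitors, although not all act outside the cell, 10 had higher and 4 lower means in mutant lungs. The median of their log2 differences was 0.12. No gene of that list passed an adjusted p under 0.05 by limma (0 of 14, lowest adjusted p = 0.152), while 6 were higher and 1 lower at an unadjusted p under 0.05, where 7.34% and 5.15% of all genes were. Higher were Sost, which binds the Lrp coreceptors (0.29, SE 0.09), Trabd2b, a membrane protease that cleaves Wnt ligands (0.26, SE 0.10), and Igfbp4, a binding protein of insulin-like growth factors that also inhibits Wnt signalling (0.21, SE 0.06). The others were the Dkk3 relative Dkkl1 (0.19, SE 0.06), the second Dkk receptor gene Kremen2 (0.14, SE 0.05) and Shisa3, whose protein holds Frizzled receptors inside the cell (0.14, SE 0.06). Kremen2 thus had a higher mean where Kremen1 had a lower one. Of the 14 genes, 9 lay between the 30th and 50th percentiles of mean expression, where the median log2 difference of all genes was above 0 (0.06 in the fourth decile and 0.05 in the fifth). In these 2 deciles, 73.7% and 68.8% of genes had higher means. At an unadjusted p under 0.05, 13.1% and 12.5% of genes there were higher.

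Cer1 was the lower gene. It is named for Cerberus, which in Xenopus binds Wnt, Nodal and BMP ligands. Its log2 values were 7.05, 7.16 and 6.95 in mutant lungs, against 7.43, 7.51 and 7.34 in control lungs. Its groups were clearly apart, and the difference was -0.37 on the log2 scale (SE 0.07, adjusted p = 0.152), opposite to the median of the genes in its decile of the scale.

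Genes for the proteins on which the antagonists act were measured on the same arrays. Of 15 receptor and coreceptor genes, 7 had higher and 8 lower means, where 54.8% of all genes had higher means. Only Fzd3 (-0.12, SE 0.05) was at an unadjusted p under 0.05, where 12.5% of all genes were. The Dkk1 targets Lrp5 and Lrp6 had log2 differences of 0.03 (SE 0.05) and -0.06 (SE 0.06), and their groups overlapped. Of 11 Wnt ligand genes, 8 had higher means, and Wnt6 (0.19, SE 0.08) was the one at an unadjusted p under 0.05, with groups that overlapped. None of these receptor, coreceptor and ligand genes passed over all genes tested, by limma at an adjusted p under 0.05.

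Wnt target genes had mostly lower means in mutant lungs. Across the expression deciles that hold the measured ones, 32.5% to 56.7% of all genes had higher means. Of 10 measured target genes, 8 had lower means, with a median log2 difference of -0.14, and 5 were lower without overlap and at an unadjusted p under 0.05, where 8.83% and 5.15% of all genes were. They were the R-spondin receptor gene Lgr5 (-0.48, SE 0.06), the Frizzled-removing ubiquitin ligases Rnf43 (-0.32, SE 0.05) and Znrf3 (-0.30, SE 0.06), Mycn (-0.30, SE 0.06) and the cyclin gene Ccnd1 (-0.15, SE 0.05). In the expression deciles that hold these 5 genes, 9.69% to 17.3% of all genes were lower without overlap. At an unadjusted p under 0.05, 6.13% to 9.65% of genes in those deciles were lower. Axin2, a general feedback target, had a log2 difference of -0.05 (SE 0.08) with groups that overlapped. No target gene passed an adjusted p under 0.05 by limma (0 of 10), and no relation between antagonists and targets was tested. The sign of this median depended on the fit, which gave 0.13 when pan-epithelial markers entered as a covariate by their mean and -0.54 when lung mesenchyme markers did.

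Marker genes of the lung's layers differed between the same groups. All 14 pan-epithelial genes had lower means in mutant lungs. In the expression deciles that hold these genes, 32.5% to 68.8% of all genes had higher means. The mean of the epithelial list was 9.24, 9.13 and 9.22 in mutants, against 9.497, 9.52 and 9.45 in controls. Its 2 smallest p-values were those of the splicing regulators Esrp1 (-0.48, SE 0.05) and Esrp2 (-0.42, SE 0.05), of which Esrp1 passed over all genes. Lung mesenchyme markers were split, with 8 higher and 6 lower, and the list mean was 11.09, 11.06 and 11.04 in mutants, against 10.91, 10.93 and 10.90 in controls. The leading genes were the matrix proteoglycans Dcn (0.54, SE 0.05), which passed over all genes, and Lum (0.61, SE 0.11). The 6 lower ones were Tbx4, Tbx5, Tcf21, Foxf1, Meox2 and Wnt2. Their log2 differences ran from -0.10 (Tcf21) to -0.004 (Wnt2), and their groups overlapped, so the higher list mean did not extend to these genes. The calls of Esrp1 and Dcn ended with any 1 array left out, with either marker mean as a covariate and with the replicate block, since no gene of these lists was then called (0 by limma). The summed linear level ran from 10229 to 10820 in mutants and from 12602 to 13221 in controls for the epithelial list, and from 37067 to 38626 in mutants and from 34807 to 36068 in controls for the mesenchymal list. In whole lungs, fewer cells of a type and less RNA per cell cannot be told apart.

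Smaller lists showed the following. Of 8 smooth muscle genes 6 had lower means, led by Actg2 (-0.38, SE 0.08) and Myocd (-0.42, SE 0.10). Most of the 8 lay in the eighth to highest deciles of mean expression. Only 32.5% to 37.6% of all genes in those deciles had higher means. Of 7 mesothelial genes 6 had higher means, led by Gpm6a (0.37, SE 0.06) and Upk3b (0.19, SE 0.06). Across the deciles that hold the mesothelial genes, 32.5% to 72.4% of all genes had higher means. Of 8 genes of cartilage, where Frzb is known to be expressed, 7 had higher means. Across the deciles that hold the cartilage genes, 37.6% to 73.7% of all genes had higher means. Those with the 2 smallest p-values in the list went both ways, Col2a1 (-0.23, SE 0.07) and Matn1 (0.28, SE 0.09). Heart muscle genes Tnnt2 and Myh6 had 10.59 and 9.25 in mutant replicate 1, the array in which Sfrp1 and Wif1 were highest, against at most 9.17 and 7.09 on the other arrays. Without that array the log2 difference was 0.14 for Sfrp1 and 0.27 for Wif1.

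With the mean of the pan-epithelial markers as a covariate, the log2 differences of Sfrp2 and Sfrp1 were both 0.80 (SE 0.22 and 0.25). Only these 2 members were at an unadjusted p under 0.05, where 3.15% of all genes were higher. The log2 difference of Sfrp5 was 0.027 (SE 0.39), against 0.25 without the covariate, and the other members ran from -0.29 (Kremen1) to 0.74 (Frzb). With the mean of the mesenchyme markers as a covariate, a choice made after seeing the data, that of Sfrp1 turned to -0.55 (SE 0.27) while those of Sfrp2 and Wif1 were 0.36 (SE 0.35) and 0.27 (SE 0.35). In that fit Dkk1 had 1.07 (SE 0.41), the 1 member at an unadjusted p under 0.05, where 3.53% of all genes were higher. Sfrp5 had 0.74 (SE 0.42), and the other 5 ran from -0.41 (Kremen1) to 0.34 (Sfrp4). Both marker means separated the groups completely, so these fits estimate the group difference with SEs several times larger, and neither gave a member at an adjusted p under 0.05.

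**Figure D4:**
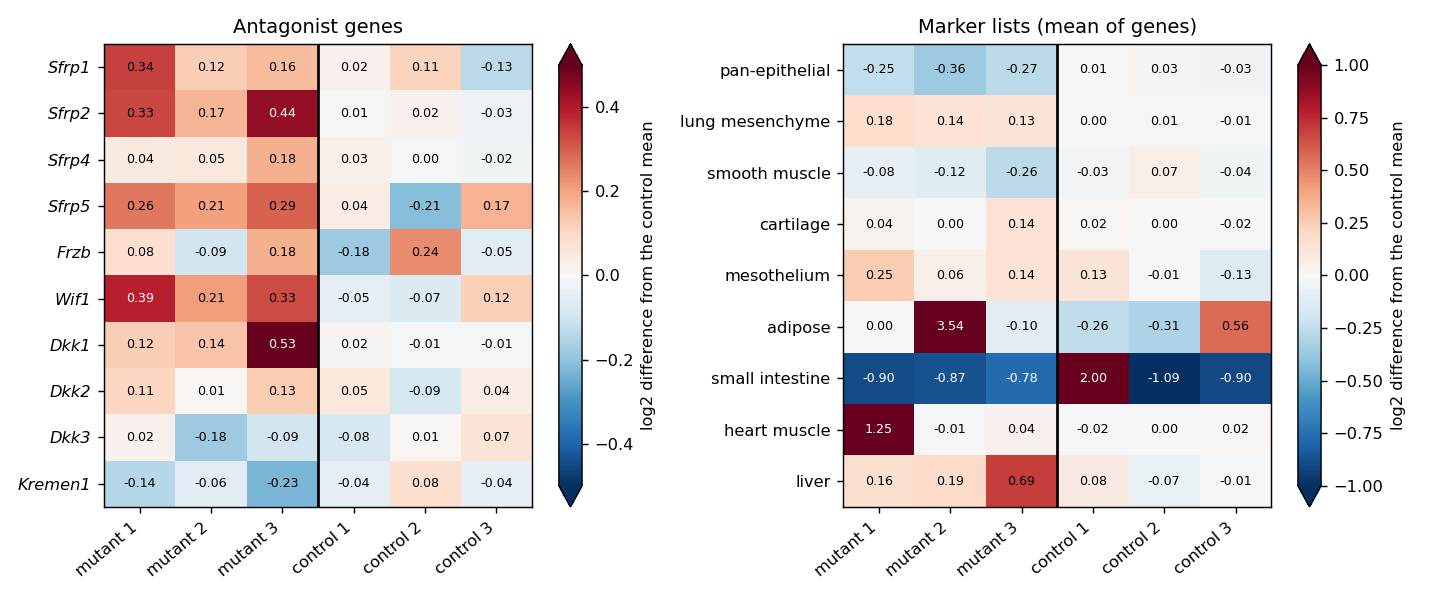
Each array's log2 difference from the control mean for the 10 antagonist genes (left) and for the mean of each marker list (right), with mutant arrays left of control arrays; colours saturate at 0.5 and 1.0. Sfrp2 and Wif1 are positive on all 3 mutant arrays, pan-epithelial means are negative on all 3, and adipose, small intestine and heart muscle values stand apart on 1 array each.

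The members also varied among arrays of 1 group. Mutant replicate 3 had the highest mutant value for 6 members (Sfrp2, Sfrp4, Sfrp5, Frzb, Dkk1 and Dkk2), and mutant replicate 2 the lowest for 7 (Sfrp1, Sfrp2, Sfrp5, Frzb, Wif1, Dkk2 and Dkk3). Mutant replicate 2 was also the array with adipose signal and the lowest pan-epithelial mean. SDs over the 3 arrays ran from 0.04 (Sfrp5) to 0.23 (Dkk1) in mutants and from 0.01 (Dkk1) to 0.21 (Frzb) in controls. As deviations from group means over the 6 arrays, Dkk1 and Sfrp4 had a Pearson r of 0.97, both highest in mutant replicate 3, and Kremen1 and Dkk2 had r = -0.95. They were picked as the highest and the lowest r among all pairs of members. These are descriptions over values from the same 6 arrays.

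Among 1912 genes with enough spread and signal, those most like Sfrp2 over the 6 arrays were the neuronal gene Stmn2 (Pearson r = 0.99, log2 difference 0.38), the growth factor gene Gdf10 (r = 0.98, 0.28) and Id3, an inhibitor of basic helix-loop-helix factors (r = 0.98, 0.30). Those most like Wif1 were the myeloid receptor gene Cd33 (r = 0.995, 0.31), the stress response gene Gadd45b (r = 0.98, 0.24) and the anion transporter gene Slc26a7 (r = 0.97, 0.50). A difference between the groups alone raises r over so few arrays.

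**Figure D5:**
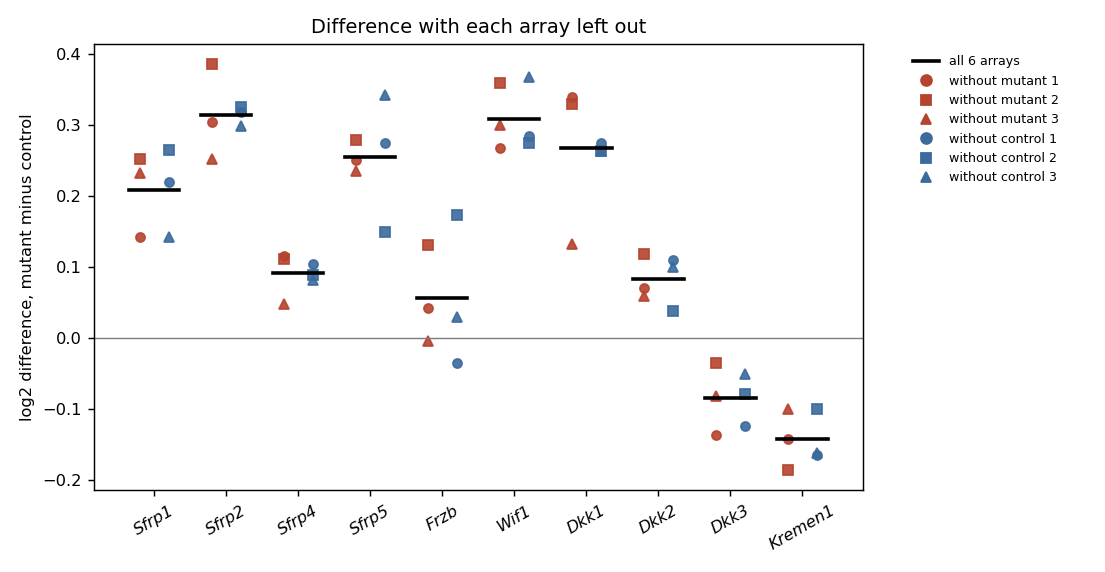
Log2 difference, mutant minus control, for each antagonist gene from all 6 arrays (black bar) and with each mutant (red) or control (blue) array left out. Sfrp2 stays between 0.25 and 0.38 and Wif1 between 0.27 and 0.37, while Frzb lies on both sides of 0 and Dkk1 drops to 0.13 without mutant replicate 3.

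With each array left out in turn, Sfrp2, Wif1, Sfrp1, Sfrp5, Dkk1, Sfrp4 and Dkk2 kept higher means and Kremen1 and Dkk3 lower means, while Frzb changed sign. The range of the log2 difference was 0.14 to 0.26 for Sfrp1 and 0.15 to 0.34 for Sfrp5. For Kremen1 it was -0.19 to -0.10. Sfrp2 and Wif1 were at an unadjusted p under 0.05 in each of these 6 fits. The number of members higher at that level was 5 without mutant replicate 2, where Kremen1 was also at that level. It was 3 without any other single array, namely mutant replicates 1 and 3 and control replicates 1, 2 and 3. Of all genes, 6.37% were higher at that level without mutant replicate 2, and 4.84% to 8.67% without any other single array. With both arrays of strong small intestine or adipose signal left out (control replicate 1, mutant replicate 2), the log2 difference was 0.39 for Sfrp2 (SE 0.07), 0.33 for Wif1 (SE 0.08), 0.34 for Dkk1 (SE 0.13), 0.26 for Sfrp1 (SE 0.11) and -0.21 for Kremen1 (SE 0.07), each larger in size than with all 6 arrays. Sfrp5, Sfrp4 and Dkk2 were also larger, but Frzb (0.039) and Dkk3 (-0.076) were smaller in size. Sfrp5 (0.30, SE 0.13) was no longer at an unadjusted p under 0.05. That left 4 members higher at that level, where 7.75% of all genes were.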

How the data were processed

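The table deposited by the authors holds log2 expression values of 6 arrays, and oligo and RMA are named in the submitters' processing notes. The sources used here give no versions, probe set level or filters, and the log2 scale was read from the values, which had array medians from 7.29 to 7.32. RMA aligns the arrays' distributions, so changes are relative to the bulk of genes.

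Of 41345 probe sets, 23521 had 1 gene symbol in the platform annotation, which gave 22180 genes. None of these symbols needed updating through the gene table of assembly GRCm38.p6. The 2 groups were set against each other in limma 3.58.1 under R 4.3.3 (a linear model with moderated variances, two-sided, Benjamini-Hochberg adjusted over all genes, threshold 0.05), checked on simulated data. Differences are mutant minus control with limma's SE. Lists were described by counts and medians only. All members are named. From other Wnt lists, genes at an unadjusted p under 0.05 are named, plus Fzd2, Axin2, Lrp5 and Lrp6, chosen after their values were seen. From marker lists, the genes with the 2 smallest p are named, except that no adipose or small intestine gene is. Of the liver list only Afp is named, also chosen after its values were seen, and Nkx2-1 is named in addition. So are the lung mesenchyme genes with lower means, chosen after their values were seen. The members and lists were chosen with earlier results of these data known. Genes like Sfrp2 or Wif1 needed an SD of at least 0.15 and a mean above the 30th percentile. Replicate numbers gave no sign of pairing the arrays.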

Additional observations from a re-analysis of the deposited data

How the results depend on the processing

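No antagonist gene passed an adjusted p under 0.05 by limma in any of the 17 alternatives, and Sfrp2, Sfrp4, Sfrp5, Wif1, Dkk1, Dkk2 and Kremen1 kept their direction in every one in which they were tested, although Sfrp5 was at 0.027 with the pan-epithelial mean. Sfrp4 and Frzb were not tested above the 30th percentile. Frzb had log2 differences of -0.035 (control replicate 1 left out), -0.0051 (mutant replicate 3 left out) and up to 0.17 with other single arrays left out, and -0.28 with the mesenchyme mean as a covariate, which gave -0.55 for Sfrp1; Dkk3 had 0.19 with the pan-epithelial mean. Averaging both probe sets of Sfrp2 gave 0.18. Members higher at an unadjusted p under 0.05 numbered 5 with the deposited values, 2 with the pan-epithelial mean, 1 (Dkk1) with the mesenchyme mean and 3 to 5 with single arrays left out. In the same order, the shares of all genes higher at that level were 7.34%, 3.15%, 3.53% and 4.84% to 8.67%. Genes called over all genes numbered 14, against 8 after a further quantile normalization, 25 above the 30th percentile, 46 with a trended robust variance and 0 with either covariate, with any array left out or without control replicate 1 and mutant replicate 2 together (1317 to 3084 genes at an unadjusted p under 0.05). Genes called in the Wnt and marker lists numbered 2, against 1, 4, 6 and 0 under those same settings. The median of the Wnt receptor list, -0.03, was 0.0082 after a further quantile normalization, 0.0020 without mutant replicate 2 and 0.0027 after cyclic loess, and that of the Wnt targets, -0.14, was 0.13 with the pan-epithelial and -0.54 with the mesenchyme mean. That of the Wnt ligands, 0.06, was 0.26 with the pan-epithelial mean, and that of the other inhibitors, 0.12, was 0.073 and 0.081 with those 2 means, 0.096 after cyclic loess and 0.089 to 0.14 with single arrays left out. The cause of these changes was not tested. Same-numbered arrays had correlations of deviations of -0.04, -0.06 and 0.07 over all genes. These gave no sign of pairing, but could miss a pairing seen in few genes. The replicate block gave 0 called genes (2511 at an unadjusted p under 0.05), 0 in the lists and 0 members. The number of arrays, and for Sfrp4 and Frzb the low signal, limit what can be seen. Means of Sfrp5 (7.01 in mutants, 6.75 in controls) and Dkk1 (7.19 and 6.92) also lay below the array medians of 7.29 to 7.32. Wif1 had means of 7.61 in mutants and 7.30 in controls. The heart muscle gene Myh6 read 6.82 to 7.09 on arrays other than mutant replicate 1. Whether Sfrp5, Dkk1 and Wif1 stood above background was not tested.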
